A study of Mus musculus with 40 samples.

Results

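Galectins are small secreted lectins that bind beta-galactoside sugars, and galectin-3 binding protein is a secreted glycoprotein that some of them bind. Their genes were followed in the colon of mice that carried the protozoan Tritrichomonas musculis (T.mu) and of mice that did not. The 6 genes are Lgals1, Lgals2, Lgals3, Lgals4, Lgals9 and Lgals3bp, taken as the rows of the count table whose Ensembl gene ID maps to these symbols, out of 45792 mouse gene IDs. Each symbol matched 1 row. T.mu mice had received 2000000 sorted T.mu cells each and control mice no inoculum. Colonic epithelial cells and total colonic tissue were sequenced as 3′ digital gene expression libraries, which count transcript ends, at 3, 14 and 48 days after inoculation. Each of the 12 groups of preparation, day and inoculum held 3 libraries at days 3 and 14 and 4 at day 48, numbered by litter. The labels give no strain, genotype, sex or age, and do not say whether an epithelial and a tissue library came from the same animal. The series design names 3 mice per group, while day 48 has 4 libraries with a litter number each, taken here as 4 mice, and p-values measure the spread between these libraries.

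Galectins lack a classical signal peptide and act both inside cells and at the cell surface, where they cross-link the sugars of glycoproteins. In the colon, Lgals4 and Lgals3 are known as galectins of the epithelium and Lgals1 as a galectin of the connective tissue. Lgals9 and Lgals3bp are known as genes that interferon induces in many cell types.

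Mouse counts per library ran from 170291 to 2866306 for epithelium and from 220717 to 6756616 for total tissue. Of these, 3 epithelial and 4 tissue libraries had fewer than 400000. Epithelial libraries carried 7 epithelial markers at a summed 3639 to 9751 CPM (counts per 1e+06 counts, after TMM scaling), with 6 fibroblast markers at 2.66 to 41.1 CPM and 8 macrophage and dendritic cell markers at 4.52 to 21.03 CPM. In total tissue these sums were 6802 to 11197, 619 to 1771 and 152 to 618 CPM. Of the epithelial markers, Epcam, Vil1, Cldn7 and Krt8 were called lower in control epithelium than in control tissue and Krt18 higher (1.46-fold, edgeR adjusted p = 0.00114). Epcam, an adhesion protein of epithelial cells, was 3.23-fold lower (adjusted p = 8.3e-25). A set of 4 tissue libraries stood apart from its label. The libraries of litters 2 and 4 at day 48, in both arms, were high in the sum of 6 small-intestine genes. These genes, listed after the data were seen, were Apoa1, Apoa4, Apoc3, Sis, Lct and Mttp. Their sum was 520 to 2929 CPM, against 16.7 to 189 CPM in the other 16 tissue libraries. Most of it was Apoa1, at 2539 and 1069 CPM in T.mu litters 2 and 4 and 380 and 2212 CPM in control litters 2 and 4. Lct did not follow the split, at 0 CPM in these T.mu libraries and 1.16 and 0.54 CPM in these controls. Apoc3 was at 0 in T.mu litter 4. Some results on the members are also given without these 4, and the other results that use tissue at day 48 include them.

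Lgals3bp and Lgals9 were the 2 members that rose with T.mu. Both rose in epithelium on all 3 days and in total tissue at days 3 and 14, by 2.24-fold to 5.22-fold. Lgals3, Lgals4, Lgals1 and Lgals2 passed the edgeR test, as fitted here, in no comparison of T.mu with control, though Lgals3 passed under some alternatives. A gene was called at a Benjamini-Hochberg adjusted p under 0.05 in edgeR's quasi-likelihood test over all genes, and adjusted p-values below are from that test. In bulk samples, fewer cells of a type and less RNA per cell cannot be told apart.

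**Figure D1:**
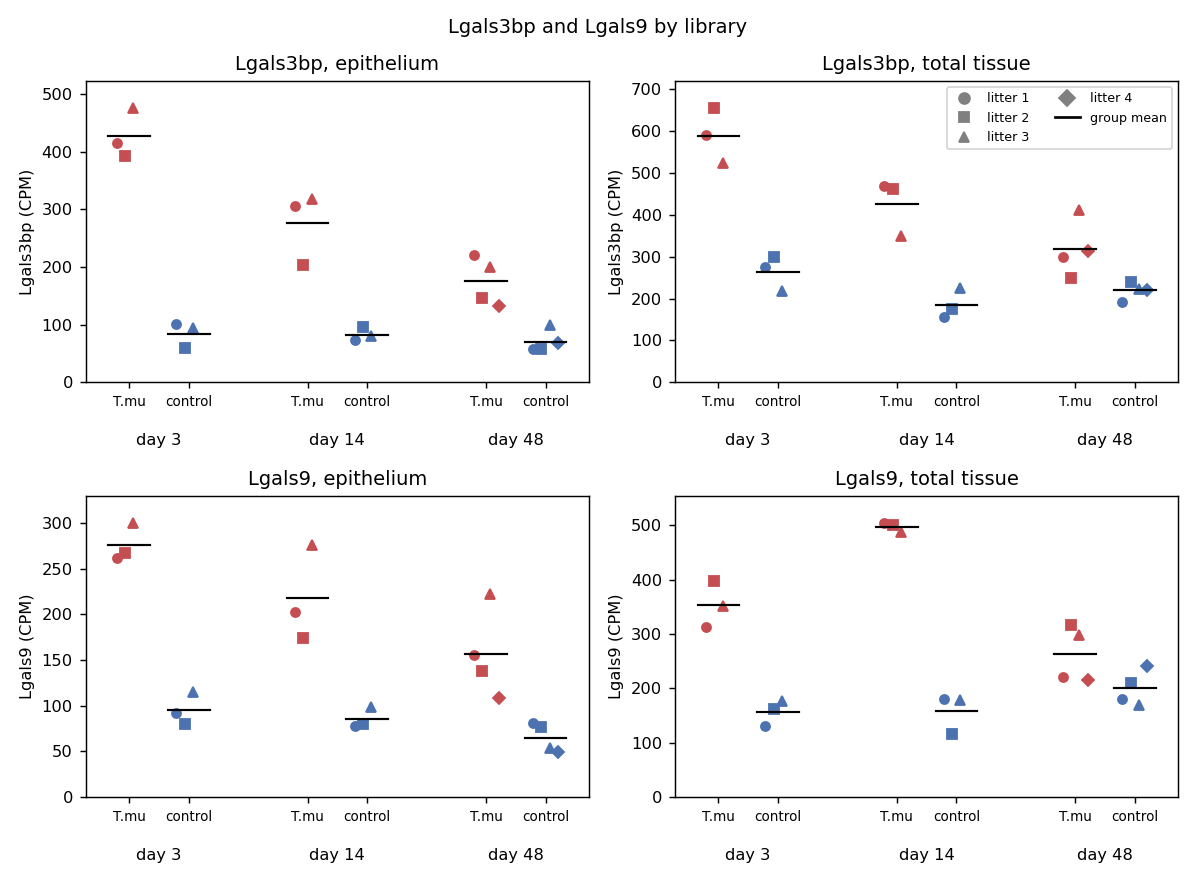
Levels of Lgals3bp (top) and Lgals9 (bottom) in CPM, on a linear axis from 0, in every library of epithelium (left) and total tissue (right), with T.mu libraries in red and controls in blue. Marker shapes give the litter and black bars the group mean of 3 or 4 libraries. In epithelium every T.mu library lies above every control of its day for both genes, while the arms lie closest in tissue at day 48.

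Lgals3bp encodes galectin-3 binding protein, a heavily glycosylated secreted protein of the scavenger receptor family. It is annotated on the minus strand of chromosome 11, at chr11:118392751-118402092 in GENCODE M21 (GRCm38), as protein coding. In epithelium at day 3 it stood at 416, 392 and 475 CPM in T.mu mice (135 to 594 counts), against 101, 58.7 and 93.9 CPM in control mice (18 to 34 counts). At day 14 the values were 307, 203 and 318 CPM in T.mu mice, against 73.7, 95.5 and 79.5 CPM in control mice. At day 48 they were 221, 147, 199.7 and 133 CPM in T.mu mice, against 57.0, 58.1, 100.1 and 67.5 CPM in control mice. The arms did not overlap on any day. The share of all genes tested in epithelium whose T.mu libraries all lay above all controls was 7.65% at day 3, 9.72% at day 14 and 2.05% at day 48. The group means were 428 ± 42.9, 276 ± 63.2 and 175 ± 42.0 CPM in T.mu mice at days 3, 14 and 48, against 84.6 ± 22.7, 82.9 ± 11.3 and 70.7 ± 20.2 CPM in control mice (SD, n = 3, 3 and 4). The control libraries of the 3 days overlapped. The T.mu libraries of day 3 all lay above those of day 14, and those of days 14 and 48 overlapped.

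The log2 fold change of Lgals3bp in epithelium was 2.38 ± 0.29 at day 3 (5.22-fold, adjusted p = 9e-08), 1.73 ± 0.26 at day 14 (3.32-fold, adjusted p = 2.45e-05) and 1.31 ± 0.22 at day 48 (2.47-fold, adjusted p = 0.000397), with SE. Among all 10119 genes tested there, 0.356% were called at day 3, 0.504% at day 14 and 0.296% at day 48, and 2 of the 4 members tested were called on each day. Lgals3bp ranked 2, 4 and 5 by p on these days. It was higher with T.mu in every litter pair, which follows from arms that did not overlap. Averaged over days the value was 1.81 ± 0.15 (adjusted p = 5.5e-14), where 3.39% of genes were called. Red blood cell markers moved with the result at day 3. Their 5 genes, all detected with T.mu, summed to 87.1 to 279 CPM there, against 10.4 to 58.7 CPM in controls, where Alas2 was at 0. Of the 4 tested, edgeR called 1, Hbb-bs (5.12-fold higher, adjusted p = 0.0129), and DESeq2 called 0. At an unadjusted p under 0.05 in edgeR there were 4. At day 14 the marker sums lay the other way, at 7.08 to 14.95 CPM with T.mu and 28.5 to 48.7 CPM in controls, with Alas2 at 0 in both arms. The part of these cells in the result was not tested.

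In total tissue Lgals3bp stood higher in both arms. At day 3 it reached 589, 654 and 523 CPM in T.mu mice, against 275, 298 and 219 CPM in control mice. At day 14 it reached 469, 461 and 349.7 CPM in T.mu mice, against 155, 175 and 225 CPM in control mice. At day 48 it stood at 298, 250.05, 412 and 313 CPM in T.mu mice, against 192, 240.3, 223 and 221 CPM in control mice. The arms did not overlap on any day, though at day 48 the lowest T.mu and the highest control library, both of litter 2, nearly met. Of all genes tested in tissue, 6.71%, 8.75% and 2.75% lay wholly higher in T.mu libraries at days 3, 14 and 48. The log2 fold change was 1.16 ± 0.18 at day 3 (2.24-fold, adjusted p = 3.22e-05) and 1.18 ± 0.19 at day 14 (2.27-fold, adjusted p = 6.64e-05). At day 48 it was 0.54 ± 0.16 (95% interval 0.23 to 0.86, adjusted p = 0.0679), past the threshold with DESeq2 (adjusted p = 0.00574), with RLE scaling (0.60, adjusted p = 0.0149) and with halved counts, but not in the main test. Leaving out the T.mu library of litter 2 at day 48 also brought a call (adjusted p = 0.0352), and leaving out all 4 libraries with small-intestine transcripts gave 0.78 ± 0.22 (adjusted p = 0.121). The call at day 14 was lost without the libraries under 400000 counts, which leaves 1 control (0.92, adjusted p = 0.208).

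Lgals9 encodes galectin-9, a galectin with a pair of sugar-binding domains that is known for its action on T cells. It is a protein-coding gene on the minus strand of chromosome 11, at chr11:78962974-78984946. In epithelium at day 3 it stood at 261, 267 and 300.1 CPM in T.mu mice (92 to 375 counts), against 91.9, 79.5 and 115 CPM in control mice (22 to 46 counts). At day 14 the values were 203, 174 and 276 CPM in T.mu mice, against 77.2, 80.5 and 98.3 CPM in control mice. At day 48 they were 155, 138, 222 and 109 CPM in T.mu mice, against 81.0, 76.2, 53.3 and 49.3 CPM in control mice. The lowest T.mu library was above the highest control on each day, and the T.mu libraries of day 14 overlapped those of day 3 and those of day 48. The log2 fold changes were 1.57 ± 0.28 at day 3, 1.35 ± 0.26 at day 14 and 1.27 ± 0.22 at day 48, or 2.97-fold, 2.54-fold and 2.41-fold. Their adjusted p-values were 0.000863, 0.00188 and 0.000533, and the mean over days was 1.40 ± 0.15 (adjusted p = 3.01e-10). The call at day 14 ended when the T.mu library of litter 3 was left out (1.15, adjusted p = 0.0700).

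In total tissue Lgals9 was highest at day 14. Its values there were 504, 499.7 and 487 CPM in T.mu mice, against 180.5, 117 and 178 CPM in control mice. At day 3 they were 312, 397 and 350.5 CPM in T.mu mice, against 129.7, 162 and 176 CPM in control mice. The 3 T.mu libraries of day 14 lay within a narrow band (497 ± 8.83 CPM, SD) above every other tissue library. At day 48 the arms overlapped, at 220.3, 317, 298 and 215 CPM in T.mu mice, against 181, 209, 169 and 241 CPM in control mice. Lgals9 rose 2.27-fold at day 3 (log2 1.18 ± 0.19, adjusted p = 3.51e-05) and 3.07-fold at day 14 (log2 1.62 ± 0.20, adjusted p = 1.84e-07). At day 48 its log2 fold change was 0.41 ± 0.17 (adjusted p = 0.228). Among all 11696 genes tested in tissue, 0.47% were called at day 3, 0.966% at day 14 and 1.8% at day 48, against 2, 2 and 0 of the 6 members. At day 48, 3 members had an unadjusted p under 0.05 and DESeq2 called 2 (Lgals3bp and Lgals9), while over all genes the median was -0.11 (log2). Without the 4 libraries with small-intestine transcripts Lgals9 gave 0.58 ± 0.23 at day 48 (adjusted p = 0.479).

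Tissue libraries of T.mu mice at day 3 also carried more of the 8 macrophage and dendritic cell markers, all detected in both arms, at a summed 477 to 618 CPM against 210 to 374 CPM in controls. The 6 fibroblast markers, likewise all detected, summed to 1242 to 1771 CPM with T.mu and to 619 to 1296 CPM in controls. By edgeR or DESeq2, 0 of the 7 macrophage and dendritic cell markers tested and 0 of the 6 fibroblast markers were called at day 3. At an unadjusted p under 0.05 in edgeR there were 5 and 4. At day 14 the macrophage and dendritic cell sums overlapped, at 250.1 to 369 CPM with T.mu and 208 to 307 CPM in controls, where Itgax was at 0. Smooth muscle markers, 6 genes all detected, summed to 2488 to 5001 CPM with T.mu at day 48 and to 4141 to 5559 CPM in controls. Of these 6, edgeR and DESeq2 called 0, with 3 at an unadjusted p under 0.05 in edgeR. Over all libraries the 5 T cell markers summed to at most 20.8 CPM and the 6 granulocyte markers to at most 8.78 CPM. Of the 4 B and plasma cell markers tested in tissue, only Jchain, the joining chain of secreted antibodies, was called with T.mu. Jchain was 1.87-fold higher in tissue at day 48 (adjusted p = 0.00349) and 1.36-fold higher over the mean of days (adjusted p = 0.0354). Not all 6 genes of that list were detected in every group. They summed to 401 to 709 CPM with T.mu at day 48, against 194 to 465 CPM in controls. At day 14 the sums were 589 to 809 against 433 to 593 CPM, and at day 3 568 to 651 against 560 to 758 CPM. Depth moved with the arms as well, since T.mu tissue libraries had 236155 to 1355659 counts at day 48 against 2223447 to 6756616 in controls. The part of these differences in the results was not tested.

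**Figure D2:**
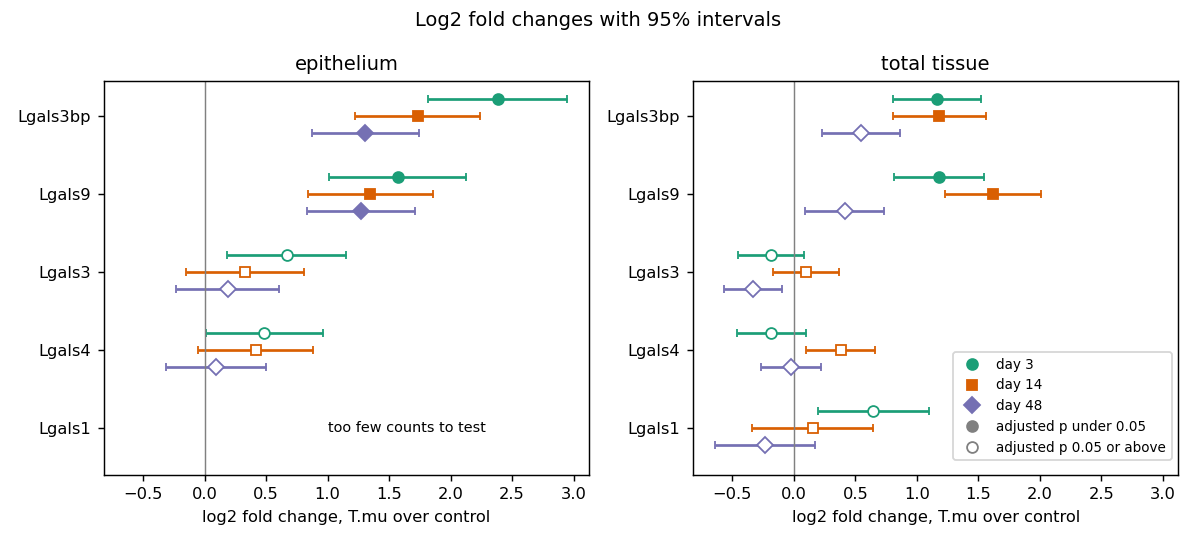
Log2 fold change of T.mu over control on the x axis, for 5 members in epithelium (left) and total tissue (right), at days 3, 14 and 48. Points are edgeR estimates, bars their 95% intervals, filled points an adjusted p under 0.05 and open points one at or above it. Lgals3bp and Lgals9 are filled in every comparison but tissue at day 48, and the intervals of Lgals3 and Lgals4 lie nearer to 0.

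Lgals9 and Lgals3bp rose together, so their promoter windows are shown. RefSeq windows (GRCm38.p6) cover 250 bases before to 50 after a gene's start and were found for 5 of the 6 members, all but Lgals1. Interferon response elements are known to hold repeats of GAAA, and a pair of GAAA spaced by 2 bases, and the shorter AANNGAAA that lies within it, were looked for on both strands in the 250 bases before each start. These motifs were chosen after the sequences were seen. The spaced pair occurs in 978 of 32851 such mouse windows (2.98%) and AANNGAAA in 21.3%. The Lgals9 window holds 1 match of the longer motif, on the opposite strand 55 to 46 bases before the RefSeq start, which also contains a match of the shorter one, and a separate match of the shorter one 151 to 144 bases before the start. The Lgals3bp window holds 1 match of the shorter motif, 14 to 7 bases before its RefSeq start and inside a GENCODE exon that begins 133 bases further upstream. Windows of Lgals2, Lgals3 and Lgals4 hold neither motif. The Lgals3 window, at chr14:47373610-47373859, lies inside the annotated GENCODE gene, which starts at 47367751. Bases before that GENCODE start were not searched. Both sequences are on the minus strand, 5′ to 3′, with the matches in capitals, and are those of chr11:78984947-78985174 for Lgals9, which ends at the annotated GENCODE start, and chr11:118401960-118401989 for Lgals3bp.
Lgals9: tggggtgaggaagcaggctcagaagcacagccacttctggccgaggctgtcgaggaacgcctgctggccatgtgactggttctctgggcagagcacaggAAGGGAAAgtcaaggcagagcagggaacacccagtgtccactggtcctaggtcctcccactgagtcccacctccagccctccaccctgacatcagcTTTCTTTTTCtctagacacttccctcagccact
Lgals3bp: tcatgtgttttctgaaAATCGAAActaggt
A match of letters is a description of these windows and not a measured site.

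Did the rise of Lgals3bp and Lgals9 change over time, or differ between the preparations? In epithelium no member passed the test of a difference between days (0% of genes called, edgeR), where Lgals3bp had an unadjusted p of 0.0157 as the 1 member under 0.05, and DESeq2 called none. In total tissue Lgals9 had an unadjusted p of 5.58e-05 and an adjusted p of 0.0604 (0.0684% of genes called). It was called with DESeq2 (adjusted p = 0.00247) and without the filter on low counts (adjusted p = 0.00487), and its adjusted p ranged from 0.0227 to 0.138 as single libraries were left out. Without the 4 libraries with small-intestine transcripts it was 0.406, and without libraries under 400000 counts 0.447. Lgals3bp reached an adjusted p of 0.369 in the same test. Of the 6 members, 4 had an unadjusted p under 0.05 there.

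As a log2 ratio, the T.mu effect on Lgals3bp was larger in epithelium than in total tissue. The ratio is taken to a control level that was 2.59-fold lower in epithelium. Mean CPM at days 3, 14 and 48 was 428, 276 and 175 with T.mu in epithelium, against 84.6, 82.9 and 70.7 in controls. In tissue it was 589, 427 and 318 with T.mu, against 264, 185 and 219 in controls. The rise in CPM at day 14 was thus larger in tissue. Averaged over days, the log2 effect was 1.81 in epithelium and 0.96 ± 0.10 in tissue (adjusted p = 2.79e-10, 1.91% of genes called), and the difference in the fit over all 40 libraries was 0.89 ± 0.19 (95% interval 0.52 to 1.25, adjusted p = 0.00699). In that test 0.752% of genes were called and the median of all genes was 0.09. The difference was 0.82 ± 0.20 without the 4 libraries with small-intestine transcripts (adjusted p = 0.0401) and 0.77 with RLE scaling (adjusted p = 0.0139). On single days it was 1.31 ± 0.34 at day 3 (adjusted p = 0.154), 0.55 ± 0.33 at day 14 and 0.80 ± 0.28 at day 48 (adjusted p = 0.319), none of them called. For Lgals9 the difference averaged over days was 0.37 ± 0.19 (95% interval -0.0012 to 0.73, adjusted p = 0.345), and at day 48 it was 0.89 ± 0.29 (adjusted p = 0.246). At day 3 the share of genes called was 0.0338%, at day 14 0% and at day 48 0.0338%, against 0 of 6 members each time. Unadjusted p-values under 0.05 belonged to 3 members at day 3, 0 at day 14 and 3 at day 48, and DESeq2 called none on these days.

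Lgals3 and Lgals4 are the galectins that colonic epithelial cells are known to make in quantity. Galectin-3 is known for binding glycans of the mucosal surface and galectin-4 for its part in the transport of proteins to the apical membrane. Lgals3 lies on the plus strand at chr14:47367751-47386160 and Lgals4 on the plus strand at chr7:28833854-28841708, both protein coding. In epithelium at day 3 Lgals3 stood at 1808, 1312 and 2493 CPM in T.mu mice, against 949, 1448 and 1127 CPM in control mice. At day 14 it stood at 2231, 1796 and 1933 CPM in T.mu mice, against 1591, 1309 and 1857 CPM in control mice. At day 48 the values were 1568, 891, 1551 and 902 CPM in T.mu mice, against 933, 1171, 1189 and 1024 CPM in control mice. The arms overlapped on every day, and at day 48 the T.mu litters 1 and 3 were above and litters 2 and 4 below all controls. The log2 fold changes were 0.67 ± 0.25 (adjusted p = 0.283), 0.33 ± 0.24 (adjusted p = 0.701) and 0.19 ± 0.21 (adjusted p = 0.996), with a mean over days of 0.39 ± 0.14 (95% interval 0.13 to 0.66, adjusted p = 0.0904). That mean over days passed for Lgals3 with DESeq2 (0.38, adjusted p = 0.0478) and without the filter on low counts (0.44, adjusted p = 0.0294). It also passed without the control library of litter 2 at day 3 (adjusted p = 0.0454), without the T.mu library of litter 2 at day 3 (adjusted p = 0.0347) and without the T.mu library of litter 4 at day 48 (adjusted p = 0.0277).

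In total tissue Lgals3 had the opposite sign at days 3 and 48. Its levels at day 3 were 4149, 4923 and 4169 CPM in T.mu mice, against 5093, 4909 and 5120.1 CPM in control mice. At day 14 they were 3817, 3806 and 3377 CPM in T.mu mice, against 3475, 3297 and 3500.2 CPM in control mice. At day 48 they were 2296, 3002, 2993 and 3227 CPM in T.mu mice, against 3698, 3432, 3779 and 3543 CPM in control mice. The arms of day 48 did not overlap, with every T.mu library below every control, as for 6.68% of the genes tested. The log2 fold change at day 48 was -0.33 ± 0.12 (95% interval -0.57 to -0.10, adjusted p = 0.164), and the values at days 3 and 14 were -0.19 ± 0.14 and 0.10 ± 0.14. Without a filter on low counts Lgals3 passed at day 48 (-0.48, adjusted p = 0.0463). Without the 4 libraries with small-intestine transcripts it was -0.51 ± 0.17 (adjusted p = 0.308). The difference of the T.mu effect between epithelium and tissue, averaged over days, was 0.57 ± 0.16 for Lgals3 (adjusted p = 0.0629), and it passed with DESeq2 (0.46, adjusted p = 0.0437) and without the filter (0.68, adjusted p = 0.00859).

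**Figure D3:**
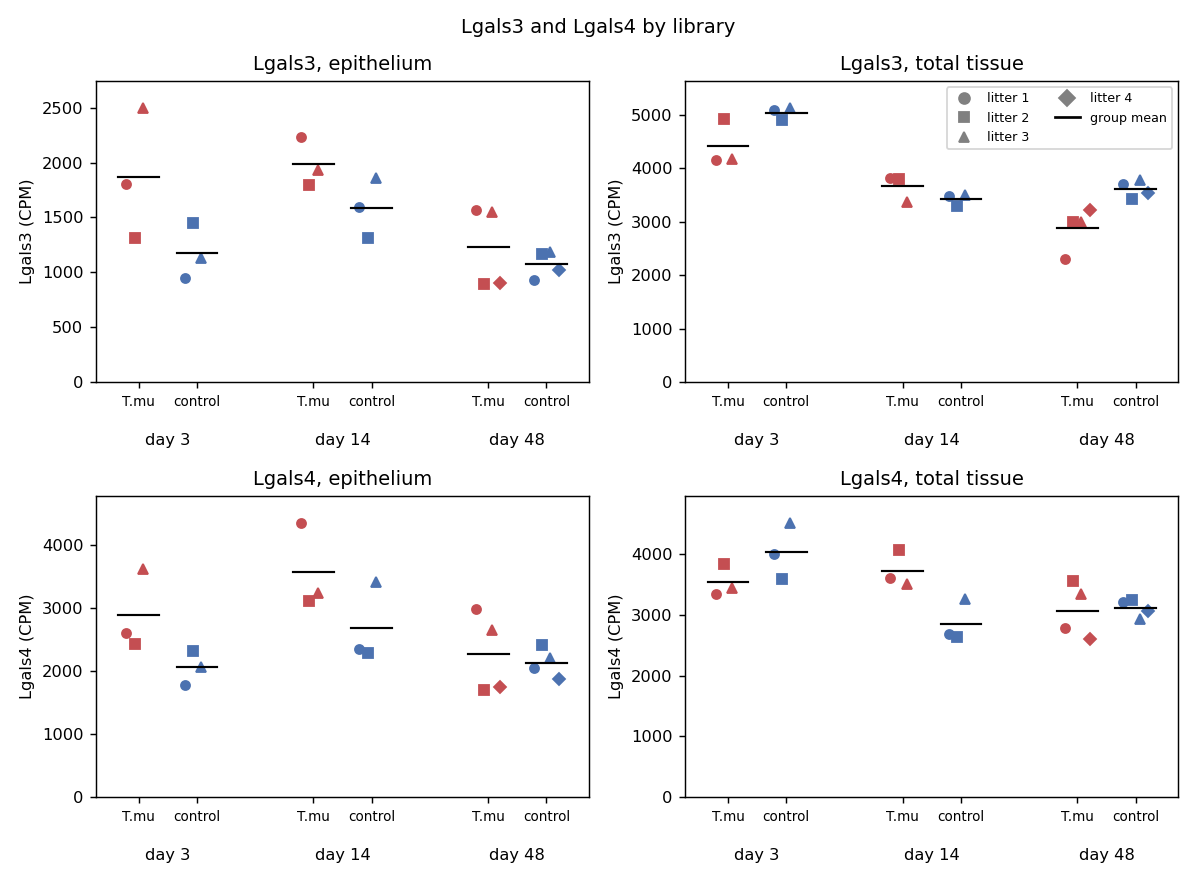
Levels of Lgals3 (top) and Lgals4 (bottom) in CPM, on a linear axis from 0, in every library of epithelium (left) and total tissue (right), with T.mu libraries in red and controls in blue. Marker shapes give the litter and black bars the group mean. In tissue at day 48 the 4 T.mu libraries lie between 2296 and 3227 CPM of Lgals3, all below the 4 controls at 3432 to 3779 CPM.

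Lgals4 in epithelium at day 3 stood at 2598, 2433 and 3620.1 CPM in T.mu mice, against 1783, 2315 and 2066 CPM in control mice, without overlap. Of all genes tested there, 7.65% lay wholly higher in T.mu libraries. At day 14 it stood at 4345, 3108 and 3244 CPM in T.mu mice, against 2345, 2278 and 3405 CPM in control mice. At day 48 it was 2986, 1700.5, 2653 and 1749 CPM in T.mu mice, against 2041, 2417, 2197 and 1877 CPM in control mice, with the T.mu litters split as for Lgals3. The log2 fold changes were 0.48 ± 0.24 (adjusted p = 0.452), 0.41 ± 0.24 (adjusted p = 0.562) and 0.09 ± 0.21 (adjusted p = 0.996), and their mean was 0.33 ± 0.13 (adjusted p = 0.149). In total tissue its levels ran from 2598 to 4068 CPM in T.mu mice and from 2634 to 4512 CPM in control mice over all days. The arms separated in tissue only at day 14, at 3603, 4068 and 3508 CPM in T.mu mice, against 2679, 2634 and 3255 CPM in control mice (log2 0.38 ± 0.14, adjusted p = 0.289). In tissue on that day 8.75% of all genes tested lay wholly higher with T.mu. At days 3 and 48 the tissue values were -0.18 ± 0.14 and -0.02 ± 0.12. In tissue at day 14 the 7 epithelial markers, all detected, summed to 8958 to 10640.4 CPM with T.mu and to 7028 to 9008 CPM in controls, and Krt8 was 1.58-fold higher (adjusted p = 0.0194). The part of the epithelial markers in the tissue result was not tested.

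Epithelial markers moved with Lgals3 and Lgals4 in the epithelial libraries. The 7 markers, all detected in every group, summed to 6204 to 9058 CPM with T.mu at day 3, against 3739.8 to 5576 CPM in controls. At day 14 they summed to 7349 to 9751 CPM with T.mu, against 4721 to 6461 CPM, and at day 48 to 3639 to 7016 CPM, against 3782 to 4729 CPM. Of the 7, 4 were called higher in T.mu epithelium in the mean over days, namely Krt8, Krt19, Vil1 and Cldn7. Of all genes tested, 3.39% were called there in either direction. Krt8 and Krt19, keratins of simple epithelia, were 1.51-fold and 1.53-fold higher (adjusted p = 0.0085 and 0.0113). Whether these differences bear on Lgals3 and Lgals4 was not tested.

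Lgals1 and Lgals2 could not be tested for T.mu in epithelium, since their counts there were too low for the filter. Lgals1 encodes galectin-1, a galectin of fibroblasts, smooth muscle and endothelium, on the plus strand at chr15:78926725-78930465. In epithelium it had 0 to 10 counts per library in either arm, with 0 counts in 3 of 10 T.mu and 4 of 10 control libraries. Without TMM scaling, a count of 0 allows up to 9.63 CPM in the shallowest T.mu library and 17.6 CPM in the shallowest control library. These floors are 3 counts, hold counting error only and take each count as a separate molecule. In total tissue at day 3 Lgals1 stood at 177, 237 and 249 CPM in T.mu mice, against 161, 179 and 85.4 CPM in control mice. The arms overlapped, the highest control reaching just past the lowest T.mu library, and the log2 fold change was 0.65 ± 0.23 (adjusted p = 0.522). Summed fibroblast markers averaged 1490 CPM in the same T.mu libraries against 980 CPM in controls, with overlapping ranges and 0 of the 6 called. At day 14 Lgals1 was 0.16 ± 0.25, with 119 to 211 CPM in T.mu mice and 124 to 175 CPM in control mice. At day 48 it was -0.23 ± 0.21, with 133 to 219 CPM in T.mu mice and 173 to 231 CPM in control mice, and 0.07 without the 4 libraries with small-intestine transcripts.

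Lgals2 encodes galectin-2, a galectin of the gut epithelium, on the minus strand at chr15:78850860-78855529. Its exons overlap those of Cdc42ep1 on the other strand, and the strand of counting is not given in the sources used here. In total tissue at day 48 Lgals2 had 2, 64, 9 and 22 counts in T.mu litters 1 to 4 (6.48, 104, 7.13 and 92.9 CPM), against 2, 289, 20 and 318 counts in control litters 1 to 4 (0.883, 83.9, 2.81 and 85.3 CPM). Litters 2 and 4 of both arms were high and every other tissue library had at most 8.85 CPM. Cdc42ep1 had 0 to 5.54 CPM in T.mu libraries and 3.53 to 7.31 CPM in control libraries of that day, with no such split. The log2 fold change of Lgals2 was 0.19 at day 48 (95% interval -1.93 to 2.31, adjusted p = 0.967).

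**Figure D4:**
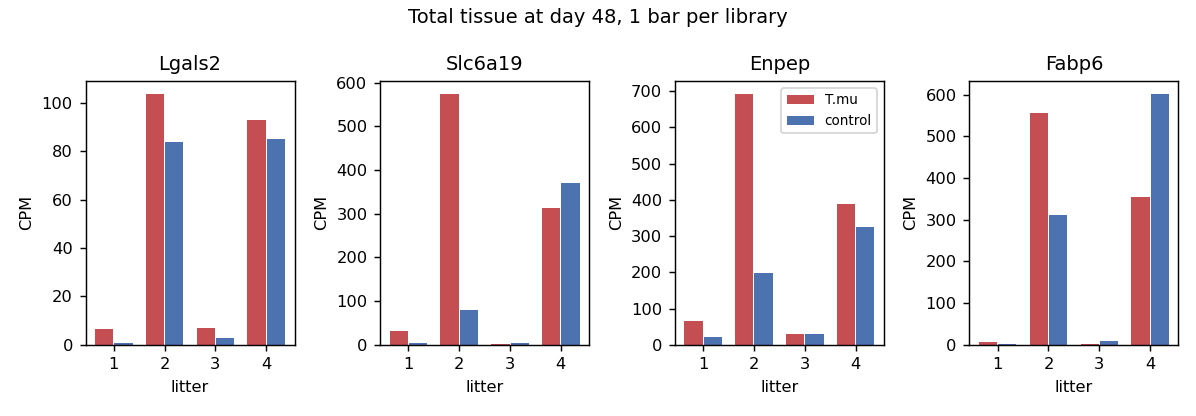
Level in CPM, on linear axes from 0, of Lgals2 and of the 3 genes most like it over the 20 total-tissue libraries, in each T.mu (red) and control (blue) library of total tissue at day 48, by litter. All 4 genes are high in litters 2 and 4 of both arms and low in litters 1 and 3.

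The genes whose log2 CPM followed Lgals2 most closely over the 20 tissue libraries were Slc6a19, an amino acid transporter of the gut brush border, Enpep, a brush border peptidase, and Fabp6, a bile acid binding protein of the ileum. Their Pearson correlations were 0.928, 0.924 and 0.909 among 5208 genes with a mean of at least 20 CPM. At day 48 Fabp6 stood at 6.48, 555, 1.58 and 355 CPM in T.mu litters 1 to 4, against 1.77, 310.5, 9.70 and 603 CPM in control litters 1 to 4. The summed small-intestine genes followed the same litters, at 93.9, 2929, 37.2 and 1377 CPM in T.mu mice, against 30.03, 520, 28.3 and 2430.5 CPM in control mice. The T.mu library of litter 1 at day 3 had 189 CPM of these genes and 7.08 CPM of Lgals2. Whether part of another gut segment was taken with these samples was not tested.

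How did control mice differ between the preparations? On 1 scaling over all 40 libraries, 5 of the 6 members were lower in control epithelium than in control tissue, where 52.8% of genes were called and 29.7% were lower. Lgals1 averaged 2.92 ± 3.26 CPM in control epithelium and 162 ± 45.3 CPM in control tissue (SD, n = 10 each). It was 23.3-fold lower at day 14 and 68.8-fold lower at day 48 as a ratio of means. At day 3 all 3 epithelial libraries had 0 counts, and a floor of 3 counts over the group put the ratio at 49.0-fold. That floor holds counting error only and takes each count as a separate molecule. Most small counts were even, so the true bound may be lower. Lgals3 averaged 1314 ± 348 CPM in control epithelium and 3811 ± 693 CPM in control tissue, and was 2.87-fold lower (log2 -1.52 ± 0.12, adjusted p = 2.07e-20). The ranges of Lgals3 did not meet, at 935 to 2014 CPM in epithelium and 3167 to 4878 CPM in tissue, as for the 8.64% of all genes tested whose control epithelial libraries all lay below the tissue libraries.

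Lgals3bp averaged 81.3 ± 18.0 CPM in control epithelium and 213 ± 40.9 CPM in control tissue, 2.59-fold lower (log2 -1.37 ± 0.14, adjusted p = 8.53e-15). Lgals9 averaged 83.0 ± 18.8 CPM in control epithelium and 167 ± 34.0 CPM in control tissue, 1.96-fold lower (log2 -0.97 ± 0.14, adjusted p = 4.09e-09). Their ranges over the 10 libraries did not overlap between preparations, though those of Lgals9 nearly met, at up to 110.2 CPM in epithelium and from 112 CPM in tissue. Lgals4 overlapped, at 1755 to 3693 CPM in epithelium and 2531 to 4257 CPM in tissue. It was 1.33-fold lower (log2 -0.41 ± 0.11, adjusted p = 0.00133), a call lost with RLE scaling (-0.16, adjusted p = 0.159), which moved the median of all genes by more than 0.1, to 0.18 from -0.07, and with DESeq2 (adjusted p = 0.131). Lgals2 gave -0.53 ± 1.16, and 0.94 ± 0.74 without the 4 libraries with small-intestine transcripts (adjusted p = 0.296). The order of the other members between preparations kept its sign under both scalings.

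**Figure D5:**
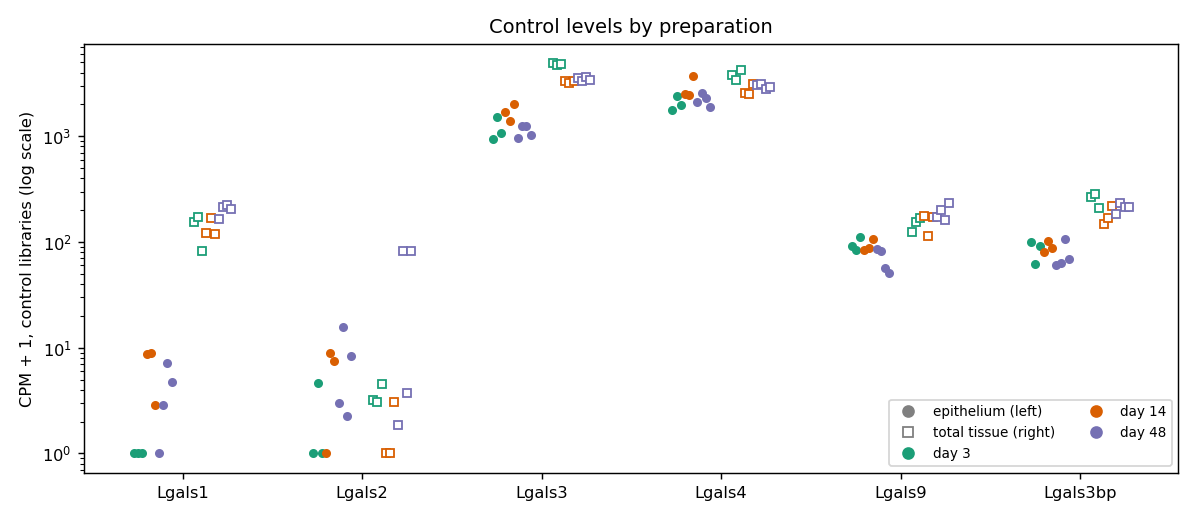
Levels of the 6 members in the 20 control libraries, as CPM plus 1 on a log axis, with epithelium as filled circles on the left of each gene and total tissue as open squares on the right, coloured by day. Lgals1, Lgals3, Lgals9 and Lgals3bp lie lower in epithelium without overlap, Lgals4 overlaps, and the open squares of Lgals2 near 80 CPM are the tissue libraries of litters 2 and 4 at day 48.

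Which genes varied most like the members? These correlations are over 20 libraries of a preparation that share inoculum, day and depth, and describe likeness only. In epithelium Lgals9 and Lgals3bp varied most like each other and like Irf7, the transcription factor of the interferon response, and Ifi27l2b. Lgals9 had a Pearson correlation of 0.922 with Lgals3bp, 0.893 with Ifi27l2b and 0.870 with Irf7, and Lgals3bp had 0.931 with Ifi27l2b and 0.887 with Irf7. In tissue the nearest genes of Lgals9 were H2-D1, a class I MHC heavy chain (0.916), Irf7 (0.902) and the immunoproteasome subunit gene Psmb9 (0.896). Those of Lgals3bp were the oligoadenylate synthetase genes Oas3 (0.930), Oas1a (0.915) and Oasl2 (0.903), and the pair itself had 0.752. Lgals3 and Lgals4 had 0.935 with each other in epithelium and 0.655 in tissue, and their nearest epithelial gene was Krt19 for both (0.965 and 0.960). Lgals3 in tissue was nearest to Degs2, Narf and Ubl3 (0.896 to 0.915), and Lgals4 to Prss32, Uqcrc2 and Coro1b (0.877 to 0.930). Lgals1 in tissue was nearest to Cavin1, a caveolar coat protein, Rgs5, known from pericytes, and the matrix protein Dpt (0.833, 0.827 and 0.808).

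Interferon-induced genes, as a list of 15, rose in both preparations. The list was chosen with earlier results of these data known, so its rise is no independent result. In epithelium 8, 9 and 7 of 15 were called higher at days 3, 14 and 48, with median log2 fold changes of 2.80, 2.23 and 1.80. In total tissue 12, 12 and 9 were called higher, with medians of 2.44, 2.68 and 1.64, and 0 were called lower in either preparation. Of all genes tested, 0.356%, 0.504% and 0.296% were called in epithelium on these days, in either direction. In tissue 0.47%, 0.966% and 1.8% were called. The medians of all genes tested were 0.06, 0.01 and 0.02 in epithelium and -0.01, 0.06 and -0.11 in tissue. Oasl2, an antiviral oligoadenylate synthetase-like gene, rose 12.6-fold in epithelium at day 14 (log2 3.65 ± 0.40, adjusted p = 1.03e-08), and Zbp1, a nucleic acid sensor, 6.98-fold in tissue at day 14 (log2 2.80 ± 0.38, adjusted p = 2.72e-06). In control mice 10 of the 15 were called lower in epithelium than in tissue, as were 29.7% of all genes tested. DESeq2 called 8 of the 15 in that comparison.

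Other genes of galectin biology moved little. Of the remaining galectin family, 3 of the 5 genes in the table were tested (Lgals8, Lgals12 and Lgalsl), and 0 were called in any T.mu comparison, also at an unadjusted p under 0.05 and with DESeq2. In control mice Lgals8, a galectin that marks damaged endosomes, was 4.62-fold lower in epithelium than in tissue (adjusted p = 3.04e-17), and Lgals12 was 4.06-fold higher (adjusted p = 8.83e-05). Of 13 enzymes that branch or cap the glycans galectins bind, B4galt1, which adds the galactose, was called higher in T.mu tissue over the mean of days (log2 0.41 ± 0.12, adjusted p = 0.0448). B4galt1 averaged 234 ± 23.6, 269 ± 46.2 and 311 ± 102 CPM in T.mu tissue at days 3, 14 and 48, against 192 ± 24.0, 194 ± 35.9 and 218 ± 43.8 CPM in control tissue. No other enzyme was called in a comparison of T.mu with control by edgeR, with 0 to 4 of the 13 at an unadjusted p under 0.05 in each comparison, and DESeq2 called 1 in the mean of days of each preparation. Of the galectin-binding glycoproteins and partners, 19 were tested in epithelium and 18 in tissue. In the T.mu comparisons 0 were called by edgeR or DESeq2, with 0 to 4 at an unadjusted p under 0.05 in each. The median log2 fold change of these partners with T.mu lay between -0.05 and 0.11 in epithelium and between 0.05 and 0.16 in tissue. Between control epithelium and control tissue, edgeR called 12 of 19 partners and DESeq2 13, where edgeR called 52.8% of all genes.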

How the data were processed

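RNA, taken with phenol and chloroform per the labels' protocols, was made into 3′ digital gene expression libraries. The authors deposited raw counts per gene and library in 1 table for all 40 libraries. The submitters' processing notes name STAR and Subread, while build, annotation, strand and molecular identifiers are not given in the sources used here. Gene IDs were given symbols for 45143 of 45792 (98.6%). A non-mouse entry, 269150 of 69164307 counts (0.389%), was kept out of library sizes and tests. Of values from 1 to 20, 61.2% to 87.2% per library were even, so halved counts were an alternative. Floors from a count of 0 reflect only counting error and take each count as a separate molecule.

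The members and gene lists were chosen with earlier results of these data known. Genes were kept by filterByExpr (minimum count 10, minimum total 15), scaled by TMM and tested with edgeR 4.0.16 (robust quasi-likelihood fit, limma 3.58.1, R 4.3.3), in 1 fit per preparation over 20 libraries and 1 over all 40. Adjusted p-values (Benjamini-Hochberg, all genes of a fit) under 0.05 were called. The text names the members, up to 4 called genes per other list and comparison by adjusted p, and the 3 genes most correlated with each tested member. Marker genes are named where they move with a result. Of the B and plasma cell list only the called gene, Jchain, is named, beside the list's sums in tissue. Scripts were tested on simulated data. Alternatives were RLE scaling, DESeq2 1.42.0, no filter, halved counts, no libraries under 400000 counts, each library left out, and litter as a replicate block. Leaving out 4 tissue libraries was added after the data were seen. The labels name litters, which pair the samples, and deviations of same-litter libraries correlated at -0.103 to 0.186. Replicates differed by more than sampling noise (chi-square per degree of freedom at least 2.75).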

Additional observations from a re-analysis of the deposited data

Results flagged for a closer look

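The T.mu effect on Lgals3bp, as a log2 ratio, differed between the preparations by 0.89 (epithelium minus total tissue, mean of days, edgeR adjusted p = 0.00699). This is a difference of ratios and not of CPM. Every litter pair was higher with T.mu in both preparations, which follows from arms that did not overlap and adds nothing to it.

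The non-mouse entry of the count table, outside the mouse genes tested, was higher in T.mu libraries. In epithelium its lowest T.mu library had 423 CPM at day 3, 274 CPM at day 14 and 45.2 CPM at day 48, against highest control libraries of 71.5, 58.1 and 43.4 CPM. In total tissue its lowest T.mu library had 6533 CPM at day 3, 4053 CPM at day 14 and 1425 CPM at day 48, against highest control libraries of 29.5, 512 and 969 CPM. Outliers were looked for only in groups of 4 libraries, all at day 48, as 24 sets of values over the 6 members. Groups of 3 libraries, at days 3 and 14, were not examined. In no set did the single highest or lowest library pass Dixon's 95% critical value for its gap to the nearest library. That test does not see a split in pairs, such as Lgals2 in tissue at day 48.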

How the results depend on the processing

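Of 1739 values of the members under the alternatives, 1677 kept their direction and side of the threshold, 4 lost the call, 30 gained one and 28 changed sign, all of the last in values not called. With litter number as a replicate block, no call on a member changed (Lgals3bp, epithelium minus tissue over days, 0.87, adjusted p = 0.00647). That block gives a litter number the same shift on all days of a fit, and does not pair the libraries within a day. The cause of the changes below was not tested.

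The number of members called in epithelium at day 14 was 2, and 1 to 2 as single libraries were left out. Over the epithelial mean of days it was 2, and 3 with DESeq2, without a filter and with any of 3 single libraries left out, each adding Lgals3. In tissue at day 14 it was 2, and 1 without libraries under 400000 counts. In tissue at day 48 it was 0, but 1 with RLE scaling, 2 with DESeq2, 1 without a filter, 1 with halved counts and 0 to 1 with single libraries left out. For the difference between days in tissue it was 0, but 1 with DESeq2, 1 without a filter and 0 to 1 with single libraries left out. For the difference between preparations it was 0 at day 3 (0 to 1 with single libraries left out), and 1 over the mean of days (2 with DESeq2, 2 without a filter, 1 to 2 with single libraries left out).

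Signs changed for low or flat values. Lgals4 in tissue at day 48 (-0.02) was 0.039 with RLE and 0.043 with DESeq2, 0.10 without libraries under 400000 counts, 0.0082 with halved counts and -0.10 to 0.051 with single libraries left out. Lgals1 in tissue at day 48 was 0.065 without the 4 libraries with small-intestine transcripts, and its difference between preparations over days (0.83) was -0.31 with DESeq2. Lgals2 in control epithelium against control tissue (-0.53) was 0.94 without those 4 and -2.04 to 0.93 with single libraries left out. Other ranges with single libraries left out were -0.079 to 0.22 for Lgals4 in epithelium at day 48, -0.44 to 0.97 and -0.73 to 0.77 for Lgals2 in tissue at days 3 and 48, and -0.21 to 0.33 for Lgals1 in tissue at day 14. For the difference between preparations they were -0.15 to 0.24 and -0.079 to 0.27 for Lgals4 at days 14 and 48, -1.06 to 0.34 and -2.80 to 0.24 for Lgals2 at day 48 and over days, and -2.19 to 0.040 for Lgals1 at day 48.

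Counts of all genes called moved by over 1.5 times in most comparisons. In epithelium they were 36 at day 3 (10 to 52 over the alternatives), 51 at day 14 (19 to 95), 30 at day 48 (14 to 35) and 343 over days (137 to 590). In tissue they were 55 (41 to 87), 113 (27 to 196), 211 (58 to 364) and 223 (146 to 323), and 8 between days (1 to 94). For the difference between preparations over days, 72 genes were higher and 17 lower, and 38 and 34 with RLE. In control epithelium against control tissue 2734 were higher and 3515 lower, and 3626 and 2667 with RLE. Depth limits Lgals1 and Lgals2 in epithelium, and p-values rest on 3 or 4 libraries a group.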
